A study of Mus musculus with 23 samples.

Results

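The mammalian subunits of canonical Polycomb repressive complex 1 (PRC1) that are described here were the chromobox genes Cbx2, Cbx6, Cbx7 and Cbx8, the polyhomeotic genes Phc1, Phc2 and Phc3, and Scmh1. They were chosen as a family, by name, and make up 8 of the 23369 gene names in each expression table. All 8 were found with 1 row each, and all 8 passed the filter on low values, which kept genes with at least 0.5 FPKM in at least 3 of the 6 samples. FPKM (fragments scaled to transcript length and sequencing depth) is a level per length, so that it can be set side by side between genes. RNA was sequenced from mouse embryonic stem cells (ESCs) in which both Kdm2b alleles carry loxP sites (Kdm2b fl/fl) and which also carry a tamoxifen-inducible Cre at Rosa26. There were 3 samples labelled untreated and 3 samples labelled as treated with 4-hydroxytamoxifen for 72 hr, a treatment that removes the exon encoding the DNA-binding ZF-CxxC domain of KDM2B. Floxed alleles and the inducible Cre are shared by both groups, and because there was no group of treated cells without the floxed alleles, tamoxifen, Cre activity and the deletion cannot be told apart. The cells had been grown on inactivated mouse embryonic fibroblast feeders and were plated overnight without them before use. The methods of the study describe biological triplicates; the labels do not say how the cultures were kept apart, and the p-values measure the spread between these samples. Groups are given as the sample labels have them. The file names have the treatment the other way round, and with them every direction between groups given here, that of Cbx8 included, would turn.

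Polycomb group proteins keep developmental genes repressed, and PRC1 is an E3 ligase that ubiquitylates histone H2A through RING1A or RING1B. In canonical PRC1 the catalytic core is joined by a CBX protein, whose chromodomain binds histone H3 trimethylated on lysine 27, and by a PHC protein, whose SAM domain polymerises and brings Polycomb-bound chromatin together. Variant PRC1 complexes hold RYBP or YAF2 in place of CBX. KDM2B binds nonmethylated CpG dinucleotides through its ZF-CxxC domain and belongs to the variant complex formed by PCGF1, which lacks CBX and PHC subunits. The comparison of treated with untreated cells therefore asks whether the genes of the other, canonical form of PRC1 were expressed at another level once the CpG-binding domain was removed.

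Because the domain that is deleted reads CpG, the DNA just upstream of the start site is shown for 4 members: Cbx7 and Phc1, the most abundant CBX and PHC genes; Cbx8, the member with the lowest mean level; and Scmh1, whose first start was the richest in CpG. Each line gives the 250 bases before the start, 5′ to 3′ on the gene's strand, with every CG in capitals. The sequences are RefSeq promoters of assembly GRCm38.p6, and each was matched exactly once to mm9, the build of the deposited positions, in which the coordinates are given.
Cbx7, mm9 chr15:79763077-79763326, minus strand: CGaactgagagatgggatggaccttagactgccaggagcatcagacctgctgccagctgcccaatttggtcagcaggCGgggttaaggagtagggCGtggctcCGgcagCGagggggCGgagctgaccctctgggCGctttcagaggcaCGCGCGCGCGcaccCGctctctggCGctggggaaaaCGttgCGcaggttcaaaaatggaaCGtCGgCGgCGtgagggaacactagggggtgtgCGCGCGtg
Cbx8, mm9 chr11:118902228-118902477, minus strand: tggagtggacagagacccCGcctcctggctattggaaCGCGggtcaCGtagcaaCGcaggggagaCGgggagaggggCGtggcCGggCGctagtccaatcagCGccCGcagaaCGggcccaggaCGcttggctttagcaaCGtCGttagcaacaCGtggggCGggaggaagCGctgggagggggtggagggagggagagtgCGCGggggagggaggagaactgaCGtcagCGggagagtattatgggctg
Phc1, mm9 chr6:122290246-122290495, minus strand: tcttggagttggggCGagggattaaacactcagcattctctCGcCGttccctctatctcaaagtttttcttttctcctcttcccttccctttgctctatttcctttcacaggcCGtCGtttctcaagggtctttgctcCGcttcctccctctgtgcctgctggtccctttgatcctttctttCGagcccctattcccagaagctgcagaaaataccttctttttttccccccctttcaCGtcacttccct
Scmh1, mm9 chr4:120077703-120077952, plus strand: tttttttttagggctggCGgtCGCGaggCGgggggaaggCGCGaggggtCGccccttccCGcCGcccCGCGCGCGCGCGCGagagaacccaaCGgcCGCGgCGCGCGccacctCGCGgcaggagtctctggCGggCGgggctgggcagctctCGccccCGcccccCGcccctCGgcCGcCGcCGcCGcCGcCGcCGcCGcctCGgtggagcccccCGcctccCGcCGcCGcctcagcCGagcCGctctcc
These stretches held 23 CG for Cbx7, 22 for Cbx8, 8 for Phc1 and 45 for Scmh1. The letters CG are their own reverse complement, so both strands were searched at once, and they were counted without regard to other motifs. Over whole RefSeq windows of 300 bases, which run on for 50 bases past the start, Cbx7 had 33 CG, a number reached by 8.56% of 32851 mouse windows. Cbx6 had 31 (10.6% of windows had at least as many), Cbx8 had 24 (20%) and Phc3 had 15 (34.6%). The most abundant member, Phc1, had 9, a number reached by 45.8% of all windows, against a median of 7 over all windows. Phc2 and Scmh1 have several annotated starts. Those of Phc2 had 19, 2 and 45 CG, and those of Scmh1 had 54 and 0; 54 was reached by only 0.347% of windows. Cbx2 was not among the windows used. A match of these letters is a description of the sequence and not a binding site.

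The libraries were similar in breadth, with 11571 to 11980 rows at 1 FPKM or more. Total read numbers cannot be read from FPKM; steps of single fragments in low genes placed the other samples at 0.653 to 0.949 of the depth of untreated replicate 1. The ESC markers were abundant in every sample, with a summed level of 2361 to 3815 FPKM for the 10 markers in untreated and 2945 to 5370 FPKM in treated samples, and 0 of 10 passed the test in either direction. Kdm2b itself was at 26.95, 21.5 and 27.7 FPKM in untreated replicates 1 to 3, and at 19.9, 21.9 and 25.0 FPKM in treated replicates 1 to 3. The groups overlapped, with a log2 difference of −0.19 (SE 0.21, limma adjusted p = 0.999). A value for the whole gene does not resolve the deleted exon and so does not check the deletion.

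ESCs held the 8 transcripts at widely different levels. Phc1 was the highest of them, at a mean of 130.6 FPKM over the 6 samples, and lay above 96% of the 12997 tested genes. Next came Cbx7 at 56.9 FPKM, above 89.2% of tested genes, and Phc2 at 24.1 FPKM, above 73.6%. Cbx2, Cbx6 and Scmh1 formed a middle group at 11.2, 11.2 and 10.8 FPKM, above 54.3%, 54.3% and 53.4% of tested genes. Phc3 at 1.51 FPKM and Cbx8 at 1.28 FPKM were the lowest, above 14% and 11.9%. Phc1 exceeded Cbx7 in 6 of 6 samples, with a ratio of means of 2.30. Likewise Cbx7 exceeded Phc2 (2.36), Phc2 exceeded Cbx2 (2.15) and Scmh1 exceeded Phc3 (7.19) in 6 of 6 samples, and the ranges of these pairs did not touch. Within the middle group and between Phc3 and Cbx8 the ranges overlapped, so their order was not larger than the spread between samples.

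**Figure D1:**
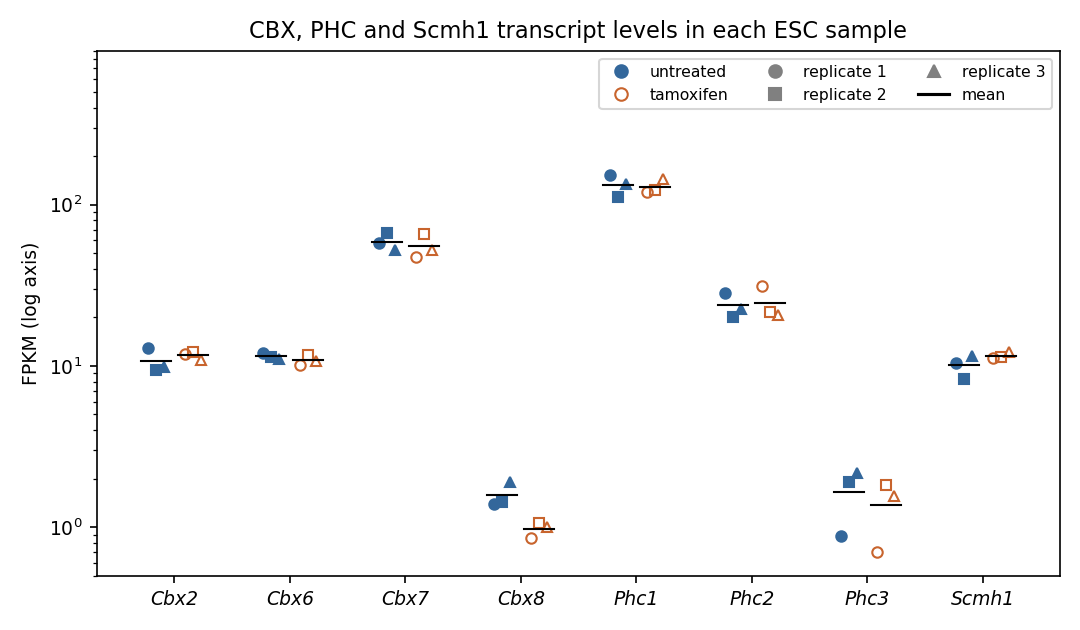
Level of each of the 8 genes in FPKM on a log axis, with filled blue symbols for the 3 untreated and open orange symbols for the 3 treated samples, symbol shape for the replicate number and a bar at each group mean. Phc1 and Cbx7 sit highest, Phc3 and Cbx8 lowest, and Cbx8 is the member whose groups do not overlap. Of all tested genes, 5.4% lay apart in the same direction.

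Among the CBX genes, Cbx7, the CBX gene known to predominate in self-renewing ESCs, made up most of the transcript. Its share of the summed FPKM of the 4 CBX genes was 68.7%, 74.9% and 69.5% in untreated replicates 1 to 3. In treated replicates 1 to 3 it was 67.5%, 72.4% and 69.6%. The means were 71.1% ± 3.36 (SD, n = 3) and 69.9% ± 2.45 (SD, n = 3), so the groups overlapped. Cbx2 made up 13.04% ± 2.37 of the CBX sum in untreated and 15.0% ± 1.71 in treated samples (SD, n = 3 each), and Cbx6 14.0% ± 0.967 and 13.9% ± 0.850. Cbx8, a CBX gene better known from differentiating cells, made up 1.66%, 1.61% and 2.55% in untreated and 1.22%, 1.17% and 1.34% in treated replicates 1 to 3. All 3 treated shares of Cbx8 were below all 3 untreated ones. The shares and the ratio below are not separate from the Cbx8 level itself. That level lay apart in the same direction, as did those of 5.4% of all tested genes. The ratio of Cbx7 to Cbx8 FPKM was 41.5, 46.5 and 27.3 in the untreated replicates and 55.2, 62.0 and 51.9 in the treated ones. The summed level of the 4 CBX genes was 82.6 ± 7.03 FPKM in untreated and 78.5 ± 10.8 FPKM in treated samples (SD, n = 3 each). These shares are over the 4 CBX genes analysed here.

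Phc1 made up most of the PHC transcript. Its share of the summed FPKM of Phc1, Phc2 and Phc3 was 83.8%, 83.5% and 84.4% in untreated and 78.9%, 84.1% and 86.6% in treated replicates 1 to 3. The means were 83.9% ± 0.445 and 83.2% ± 3.92 (SD, n = 3 each), and the treated values lay on both sides of the untreated ones. Phc2 made up 15.0% ± 0.715 and 15.9% ± 4.22, and treated replicate 1 was the highest at 20.6%. Phc3 contributed 1.09% ± 0.523 and 0.884% ± 0.393. Scmh1, which encodes a SAM and MBT domain protein related to PHC and to fly Sex comb on midleg, stood at 5.76%, 6.15% and 7.29% of the PHC sum in untreated replicates 1 to 3. In treated replicates 1 to 3 it stood at 7.35%, 7.80% and 7.33%. The lowest treated value exceeded the highest untreated one by a margin far smaller than the range of the untreated values. The PHC sum was 157.9 ± 23.7 FPKM in untreated and 154.6 ± 10.0 FPKM in treated samples (SD, n = 3 each).

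**Figure D2:**
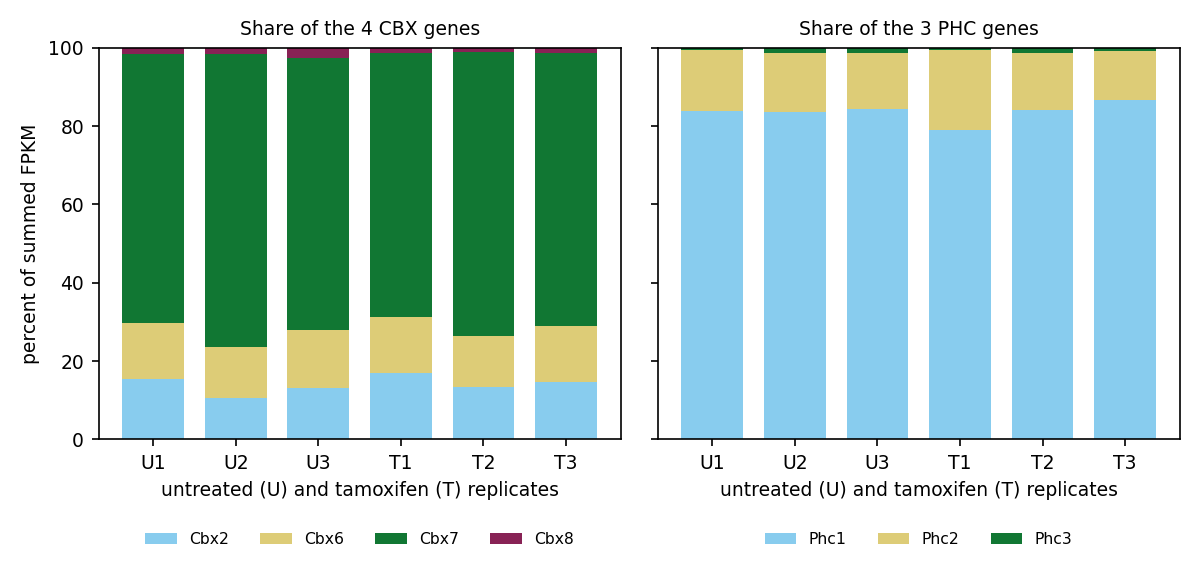
Share of each gene, in percent of summed FPKM, for the 4 CBX genes (left) and the 3 PHC genes (right) in untreated (U1 to U3) and treated (T1 to T3) replicates. Cbx7 fills 67.5% to 74.9% of the CBX bars and Phc1 78.9% to 86.6% of the PHC bars.

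In the comparison of treated with untreated cells, 0 of the 8 genes passed the test (limma on log2(FPKM + 0.1), Benjamini-Hochberg adjusted p below 0.05). The background was low, since 4 of 12997 genes passed in either direction (0.0308%). With the replicate number as a block, which counts only differences between samples of the same number, 787 genes were lower (6.06%) and 563 higher (4.33%), and again 0 members passed. At an unadjusted p below 0.05, 0 members and 4.79% of all genes were found without the block, and 1 member (Cbx8) and 29.8% of all genes with it. The median log2 difference of the members was −0.06, beside −0.02 for all tested genes, and their median size was 0.12, beside 0.20. Differences are on the log2(FPKM + 0.1) scale, which understates those of low genes.

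Cbx8, whose chromodomain protein is one of the alternative readers of trimethylated H3K27, was the one member whose groups did not overlap. It was at 1.39, 1.43 and 1.91 FPKM in untreated and at 0.859, 1.06 and 1.00 FPKM in treated replicates 1 to 3. Each treated sample was thus below each untreated one, as was so for 5.4% of all tested genes (702), while 3.09% (402) lay apart in the higher direction and 0 members did. The means were 1.58 ± 0.287 and 0.974 ± 0.103 FPKM (SD, n = 3 each), with a log2 difference of −0.63 (SE 0.29, 95% interval −1.30 to 0.03). The limma adjusted p was 0.999 without and 0.0737 with the replicate block, which narrowed the interval to −1.08 to −0.19. An exact two-sided permutation test gave p = 0.1, the smallest that 3 against 3 samples allow. Within replicate numbers 1 to 3 the log2 differences were −0.64, −0.40 and −0.87. At this level the interval that the authors deposited for each Cbx8 value spanned 34.2% to 42.1% of the value on either side. With a pseudocount of 1 FPKM, which by construction shrinks differences of low genes, the log2 difference was −0.38.

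Cbx7 and the other CBX genes differed by less. Cbx7 was at 57.8, 66.5 and 52.1 FPKM in untreated and at 47.4, 65.7 and 52.0 FPKM in treated replicates 1 to 3. The highest value in each group came from replicate 2, and the groups overlapped. Its means were 58.8 ± 7.23 and 55.0 ± 9.53 FPKM (SD, n = 3 each), and the log2 difference was −0.10 (SE 0.22, 95% interval −0.61 to 0.41). In 5 of 6 samples the deposited Cbx7 value lay outside the interval deposited beside it, so those intervals were not used. Cbx2, a CBX protein known for compacting chromatin, was at 12.9, 9.41 and 9.87 FPKM in untreated and at 11.8, 12.2 and 10.9 FPKM in treated replicates 1 to 3. Untreated replicate 1 was above and the other 2 untreated samples were below all treated samples. The log2 difference was 0.13 (95% interval −0.36 to 0.62). Cbx6, a less studied CBX gene, was at 12.0, 11.4 and 11.03 FPKM in untreated and at 10.1, 11.7 and 10.8 FPKM in treated replicates 1 to 3. The groups overlapped, and its log2 difference was −0.08 (95% interval −0.53 to 0.37).

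Of the PHC genes, Phc1 was at 152.1, 112 and 133.5 FPKM in untreated and at 119.6, 123.1 and 143.5 FPKM in treated replicates 1 to 3. Untreated samples were both the highest and the lowest. The log2 difference was −0.04 (SE 0.23, 95% interval −0.56 to 0.49), and the group means were 132.6 ± 20.1 and 128.7 ± 12.9 FPKM (SD, n = 3 each). Phc2 was at 28.4, 20.2 and 22.6 FPKM in untreated and at 31.3, 21.5 and 20.7 FPKM in treated replicates 1 to 3. Replicate 1 was the highest of each group. Its log2 difference was 0.03 (95% interval −0.53 to 0.59). Phc3 was at 0.885, 1.90 and 2.16 FPKM in untreated and at 0.704, 1.82 and 1.56 FPKM in treated replicates 1 to 3. Replicate 1 was the lowest of each group, and the log2 difference was −0.26 (SE 0.45, 95% interval −1.30 to 0.77). The replicate block narrowed the interval of Phc3 to −0.68 to 0.15. Scmh1 was at 10.5, 8.25 and 11.5 FPKM in untreated and at 11.1, 11.4 and 12.1 FPKM in treated replicates 1 to 3, with a log2 difference of 0.21 (95% interval −0.28 to 0.70). It was higher in treated samples within each replicate number, by 0.09, 0.46 and 0.07 on the log2 scale, and with the block its interval was −0.07 to 0.49.

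Without the block, the limma adjusted p rounded to 0.999 or more for all 8 members; with it, the other 7 members ranged from 0.275 for Scmh1 to 0.866 for Phc1. Counted within replicate numbers, 3 members (Cbx7, Cbx8 and Phc3) were lower in all 3 comparisons, as were 28.2% of all tested genes. Of these, Cbx7 differed by only −0.02 and −0.0023 in replicate numbers 2 and 3. Scmh1 was the 1 member that was higher in all 3, as were 24.8% of all tested genes. A p that misses the threshold does not show equal levels. The intervals above are for single genes and are not adjusted for the number of genes tested. That of Cbx8 with the block left out no difference, though its limma adjusted p with the block was 0.0737.

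**Figure D3:**
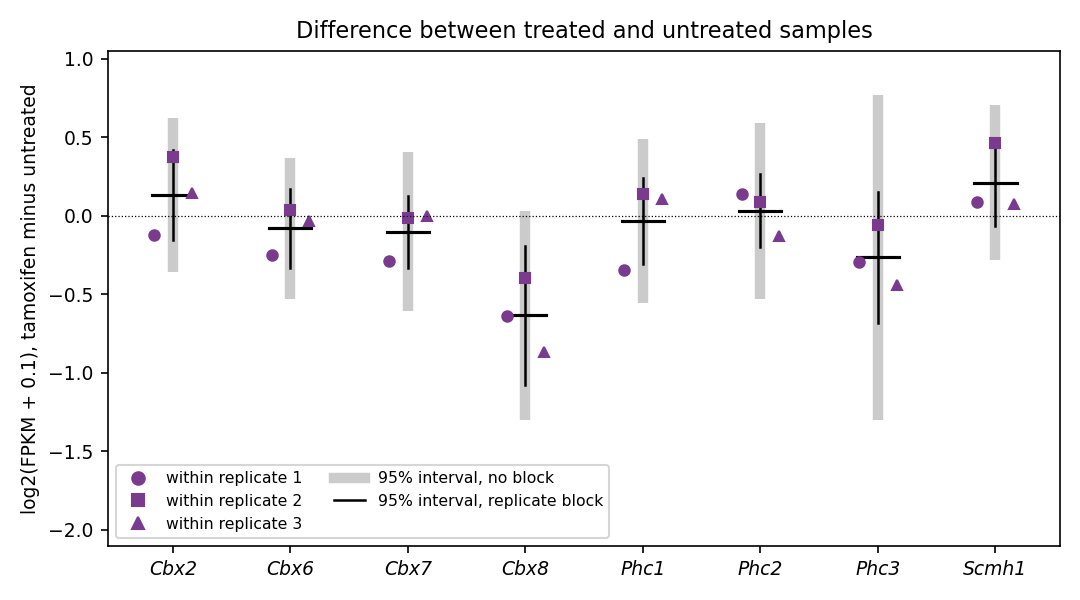
Difference in log2(FPKM + 0.1), treated minus untreated, for each of the 8 genes, with purple symbols for the 3 replicate numbers, a short bar at the mean, a grey band for the 95% interval without and a black line for that with the replicate block. All 3 Cbx8 symbols lie below 0, at −0.40 to −0.87, and all 3 Scmh1 symbols lie above it, at 0.07 to 0.46.

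For several members the samples differed more by replicate number than by treatment. The spread of log2(FPKM + 0.1) over the 6 samples was divided into a part between the treatment labels, a part between the replicate numbers and a rest. The part between 3 replicate numbers has more freedom than that between the treatment labels, and tends to be larger without any effect. This division was not made for all tested genes. Over all of these, samples of the same number deviated together (r = 0.544, 0.605 and 0.506 for numbers 1 to 3). A part between replicate numbers is thus not particular to the members. The replicate number held 93.9% of the sum of squares for Phc2, 92.3% for Phc3 and 79% for Cbx7. The treatment label held 79.8% for Cbx8, 33.8% for Scmh1 and 24.3% for Cbx6, and at most 16.5% for the other 5 members. In Phc3 both replicate 1 samples, at a mean of 0.794 FPKM, lay below the other 4, at means of 1.86 and 1.86 FPKM for replicates 2 and 3. In Phc2 they lay above the other 4, at 29.9 against 20.9 and 21.6 FPKM. How many of all tested genes had replicate 1 apart was not counted, so this need not be particular to Phc2 and Phc3. The same holds for the genes likened to Phc3 below. The ratio of Phc1 to Phc3 was accordingly 172 and 170 in the untreated and treated replicate 1 samples, against 58.9 to 91.9 in the other 4.

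**Figure D4:**
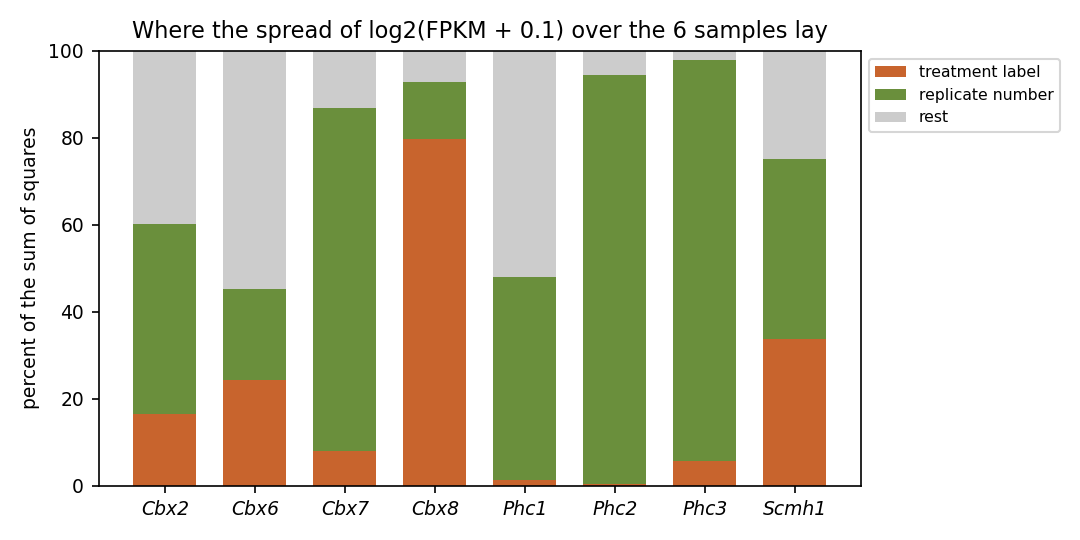
Division of the sum of squares of log2(FPKM + 0.1) over the 6 samples, in percent, into treatment label (orange), replicate number (green) and rest (grey) for each of the 8 genes. The orange part is largest for Cbx8, at 79.8%, and the green part for Phc2, at 93.9%.

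Summed markers of other cells shared part of their order over the samples with Phc3 and Cbx8. The summed level of 10 markers of feeder fibroblasts was 39.0, 104.4 and 79.2 FPKM in untreated and 47.9, 101.4 and 76.6 FPKM in treated replicates 1 to 3. The replicate 1 samples were thus lowest in this sum, as they were in Phc3. Between them the order differed, as the treated sample was lower in Phc3 and higher in the sum. Col1a1 and Col1a2, the most abundant of these markers, were lowest in replicate 1, but not every marker was. Twist2 was at 1.36, 1.08 and 1.35 FPKM in untreated and at 1.30, 1.29 and 2.31 FPKM in treated replicates 1 to 3. Pdgfrb was at 0.707 FPKM in treated replicate 1, above the 0.669 FPKM of treated replicate 3. None of the 9 tested feeder markers passed the test between groups with limma, with or without the block, and Lum was listed at 0 in 1 sample. In bulk RNA, fewer cells of a type and less RNA per cell cannot be told apart. The summed level of 8 markers of early differentiation was 37.1 to 54.5 FPKM in untreated and 29.3 to 34.1 FPKM in treated samples, and so lay apart between the groups in the same direction as Cbx8. Among the untreated samples, replicate 1 was highest in this sum and lowest in Cbx8. With the replicate block 4 of the 7 tested early differentiation markers were lower (Eomes, Pax6, Nes and Sox1), and without it 0 were. Over all tested genes the block called 6.06% lower (787 genes), and 43 genes when replicate number 2 was left out. T and Fgf5 of the same list had log2 differences of 0.38 and 0.29, each positive in 2 of 3 replicate numbers, and did not pass with the block (limma adjusted p = 0.427 and 0.260). The sum of 8 primitive endoderm markers ranged from 11.2 to 15.8 FPKM in untreated and from 7.06 to 12.5 FPKM in treated samples. With the block 3 of the 5 tested ones were lower (Gata6, Gata4 and Lama1), without it 0 were, and Foxa2 was listed at 0 in 1 sample. Dab2 of the same list went the other way within each replicate number, at means of 2.84 and 3.42 FPKM, and did not pass with the block (log2 difference 0.23, limma adjusted p = 0.305). The part of these cells in the levels of Phc3 and Cbx8 was not tested.

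**Figure D5:**
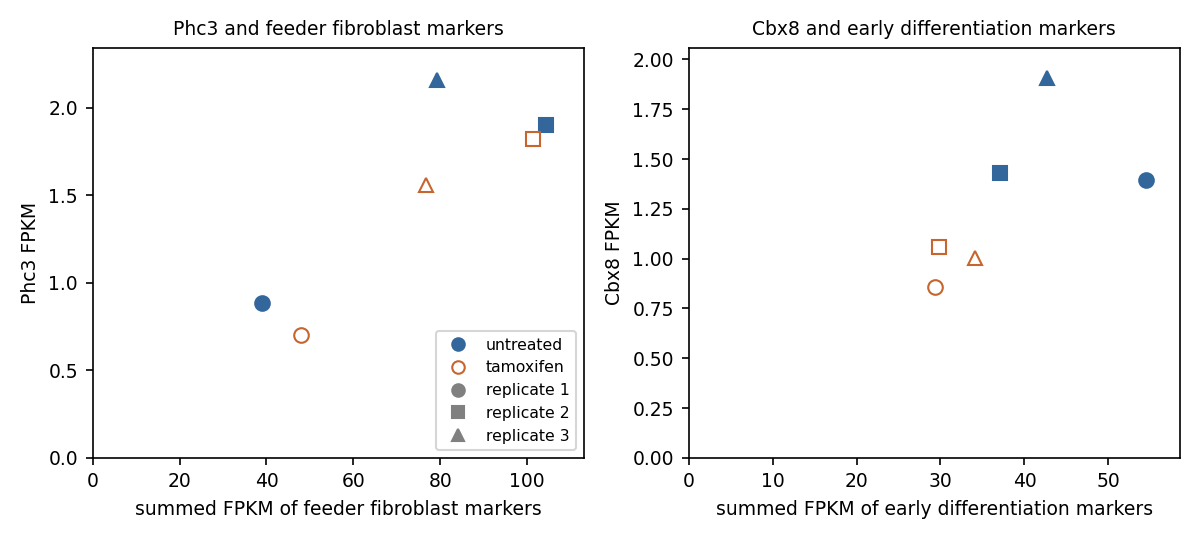
Phc3 in FPKM against the summed FPKM of feeder fibroblast markers (left) and Cbx8 in FPKM against that of early differentiation markers (right), with 1 symbol per sample, filled blue for untreated and open orange for treated, and symbol shape for the replicate number. Both replicate 1 samples are lowest on both axes at left, and the 3 treated samples are lowest on both axes at right.

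The other genes of the pathway were counted over lists chosen by known role. Of 27 listed genes, 25 were in the tables and 22 were tested; 0 were called without the block, and 1 was called higher and 2 lower with it. Over all tested genes the block called 4.33% higher and 6.06% lower, so these counts are near the background. In the PRC1 core, 0 of 4 were called with or without the block. Ring1 and Rnf2, which encode the E3 ligases RING1A and RING1B, were at 4.95 ± 0.670 and 36.4 ± 9.16 FPKM in untreated and at 4.40 ± 1.21 and 37.6 ± 8.81 FPKM in treated samples (SD, n = 3 each). Pcgf2, which with Bmi1 provides the alternative PCGF partners of canonical PRC1, was at 43.6 ± 4.67 and 41.9 ± 3.01 FPKM. Bmi1, named after its values were seen, was at 1.44, 2.96 and 4.39 FPKM in untreated and at 1.21, 2.01 and 2.62 FPKM in treated replicates 1 to 3. It was lower within each replicate number, with overlapping groups (log2 difference −0.50, limma adjusted p = 0.999 without and 0.0926 with the block), and both replicate 1 samples were lowest, as in Phc3. Rybp, which takes the place of CBX in variant PRC1, was at 46.3 ± 9.33 and 44.9 ± 12.1 FPKM and its relative Yaf2 at 7.73 ± 1.33 and 7.60 ± 0.803 FPKM, with 0 of 2 called. Of the 3 HP1 chromobox genes, whose proteins read methylated H3K9, 0 were called. Cbx1 was at 89.5 ± 19.2 and 97.6 ± 23.2 FPKM, Cbx3 at 101 ± 29.0 and 126.5 ± 32.0 FPKM and Cbx5 at 56.5 ± 12.9 and 47.4 ± 16.4 FPKM. All 3 thus stood far above Cbx2, Cbx6 and Cbx8.

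PRC2 deposits the H3K27 methylation that CBX proteins bind. Of its 9 listed genes, 1 was called higher and 1 lower with the block. The catalytic subunit Ezh2 was at 50.5 ± 13.1 FPKM in untreated and 64.0 ± 12.0 FPKM in treated samples, its paralog Ezh1 at 12.4 ± 3.75 and 13.5 ± 2.43 FPKM, and Eed, which binds the methylated product, at 57.0 ± 14.2 and 63.0 ± 11.8 FPKM (SD, n = 3 each). Phf19, a Polycomb-like accessory factor, was at 6.14, 3.79 and 4.76 FPKM in untreated and at 10.5, 11.2 and 9.28 FPKM in treated replicates 1 to 3. Every treated sample of Phf19 was above every untreated one, as was so for 3.09% of all tested genes. The log2 difference of Phf19 was 1.08 (limma adjusted p = 0.400 without and 0.0105 with the block). Its relative Phf1 was at 4.75, 7.52 and 4.13 FPKM in untreated and at 3.66, 5.14 and 2.84 FPKM in treated replicates 1 to 3, lower in each number but with overlapping groups (log2 difference −0.48, limma adjusted p = 0.0482 with the block). Among the MBT and SAM relatives of Scmh1, 7 of 9 were in the tables and 4 were tested, and 1 was called lower with the block. Sfmbt2, an MBT protein gene, was at 6.46, 18.3 and 14.5 FPKM in untreated and at 4.83, 14.6 and 9.80 FPKM in treated replicates 1 to 3 (log2 difference −0.43, limma adjusted p = 0.0439 with the block). Its replicate 1 samples were lowest, as in Phc3. Scml2 and Scml4 were below the filter, and Sfmbt1 was at 4.55 ± 0.271 and 3.33 ± 0.472 FPKM (SD, n = 3 each). Every treated sample of Sfmbt1 was below every untreated one, as was so for 5.4% of all tested genes. Its log2 difference was −0.45 (limma adjusted p = 0.999 without and 0.0694 with the block). Without replicate number 2, the block called 0 of these pathway genes in either direction.

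Some members lie in pairs. Cbx2 (mm9 chr11:118884343-118892584) and Cbx8 (chr11:118899750-118902227) are 7165 bp apart, and Cbx6 (chr15:79654328-79664763) and Cbx7 (chr15:79746237-79763076) are 81473 bp apart. The ratio of Cbx2 to Cbx8 was 9.26, 6.59 and 5.17 in untreated and 13.8, 11.6 and 10.9 in treated replicates 1 to 3, and so was higher in every treated sample. Neither gene passed the test and the difference between them was not tested; Cbx8, the member with groups apart, is the divisor of this ratio. The likeness of 2 profiles was measured as the root mean square difference of their centred log2 values over the 6 samples, where a lower value is a closer profile. It was 0.459 for Cbx2 and Cbx8 and 0.125 for Cbx6 and Cbx7, the closest pair among the 8 genes, and 0.781 for Phc2 and Phc3, the farthest. Pairs on different chromosomes came nearly as close as Cbx6 and Cbx7, such as Cbx6 and Phc1 at 0.153 and Phc1 and Scmh1 at 0.163. On the other side of Cbx2, Enpp7 was listed at 0 in 5 of 6 samples. Between Cbx6 and Cbx7, Apobec3 was at 30.8, 15.9 and 22.5 FPKM in untreated and at 38.4, 25.3 and 29.7 FPKM in treated replicates 1 to 3 (limma adjusted p = 0.999 without and 0.0354 with the block), while D730005E14Rik was listed at 0 in every sample. Npcd overlaps Cbx6 and was listed at 2.58, 5.19 and 2.19 FPKM in untreated and at 2.57, 0 and 0 FPKM in treated replicates 1 to 3, so that reads of the overlap may have been divided between them. Nptxr, which precedes Cbx6 and overlaps Npcd, was listed at 0 in 1 treated sample, and Pdgfb, which follows Cbx7, was at 4.08 ± 0.628 and 3.32 ± 1.02 FPKM (SD, n = 3 each). The remaining members overlapped no other gene in the deposited positions, and their flanking genes were not sought. They are Phc1 at chr6:122267749-122290245, Phc2 at chr4:128331946-128430125, Phc3 at chr3:30798217-30868337 and Scmh1 at chr4:120077886-120202804.

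The genes with the profiles most like those of the most abundant members were sought among 11856 tested genes with a mean of at least 1 FPKM. For Cbx7 they were Sbf1 at 0.0373, Ankrd11 at 0.0471 and Cmtm4 at 0.0518 in root mean square log2 difference, against a median of 0.373 over all genes compared. For Phc1 they were Trib2 at 0.0286, Bms1 at 0.0331 and Dhx35 at 0.0354, against a median of 0.331. These values describe likeness over 6 samples only.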

How the data were processed

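The submitters made polyA+ directional libraries and sequenced paired ends. Reads were placed on mm9 by TopHat2, and refGene models were quantified by Cuffdiff 2.1.1. For each gene row, the authors deposited an FPKM with an interval and a status. FPKM are scaled to transcript length and library size, so that counts and depth are not given. A change of a few abundant genes can shift all others, and the FPKM of a sample summed to between 549400 and 1046000. The other 17 of 23 samples (ChIP-seq and inputs) were not analysed here.

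Groups follow the sample labels. Tamoxifen was at 800 nM by the labels, whereas the series text has µM. FPKM of rows that share a gene name were added up, and 6 names with a failed status were dropped. The test was limma 3.58.1 (R 4.3.3; eBayes with a trend, two-sided) applied to log2(FPKM + 0.1), and p-values were adjusted by Benjamini-Hochberg over 12997 genes. Samples with the same number deviated together (r = 0.544, 0.605 and 0.506 for numbers 1 to 3), so the replicate numbers of the labels were taken to pair them and a fit with a replicate block was run beside the main one. Python 3.11.15, pandas 2.3.3, numpy 2.4.6, scipy 1.17.1 and matplotlib 3.10.9 were used for the rest. The fits were tested on simulated data.

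The named genes are the 8 members, Kdm2b, the pathway genes called with or without the block plus the first 3 of each list, genes that overlap or flank the CBX pairs, and the 3 nearest profiles to the highest CBX and PHC member. The right-hand neighbour of Cbx8 is not reported here. The members, lists and rules were chosen with earlier results of these data known. Alternatives changed the pseudocount, filter, scaling, row choice, variance model, block and samples.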

Additional observations from a re-analysis of the deposited data

How the results depend on the processing

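Over the 8 members, 174 alternative log2 differences were computed: 162 kept their direction and 12 reversed. Changing only the filter, row choice, variance model or block returns the main log2 difference by construction, so these alternatives could not reverse it. Adding the block to quantile normalization, or to TPM scaling without short loci, likewise repeats the values found without the block. The tally therefore holds repeated values and overstates how often a direction was put to a separate check. The log2 ratios of group mean FPKM carried no p. Among the alternatives with a test 0 moved across the threshold, with adjusted p from 0.0521 to 1. Calls among the members were 0 in each direction under every alternative run. Cbx2, Cbx7, Cbx8 and Scmh1 kept their direction throughout. Cbx8 lay between −0.75 and −0.38 and Scmh1 between 0.074 and 0.31. Cbx2 (0.010 to 0.27) and Cbx7 (−0.24 to −0.00022) came close to no difference in some settings. Cbx8 and Phc3 were not tested where 1 FPKM was required in all 6 samples. With TPM scaling, Cbx6 was 0.019 and Phc1 was 0.066, but this scaling moved the median of all genes to 0.081, above both. Phc2 was −0.056, with or without the replicate block, when TPM were computed without loci shorter than 300 bp, a scaling that moved the median of all genes to −0.11. Leaving out 1 sample gave −0.15 to 0.069 for Phc1, −0.16 to 0.17 for Phc2 and −0.64 to 0.12 for Phc3. Phc1 turned without untreated replicate 1 (0.069) or treated replicate 1 (0.015), Phc2 without untreated replicate 2 (−0.076) or treated replicate 1 (−0.16), and Phc3 without treated replicate 1 (0.12). With the replicate block and 1 replicate number left out, Cbx6 was −0.14 to 0.0024, Phc1 −0.12 to 0.12 and Phc2 −0.019 to 0.11, each turned without number 1. The replicate block changed no call of a member.

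Over all genes, 3 were higher and 1 lower in the main fit. A pseudocount of 1 FPKM gave 0 lower, and requiring 1 FPKM in all samples gave 0 and 0. The replicate block gave 563 higher and 787 lower, 604 and 595 with quantile normalization, and 421 and 1190 with short loci left out and TPM scaling. Leaving out a sample gave 2 to 5 higher and 0 to 7 lower without the block; with it, leaving out a replicate number gave 36 to 744 higher and 43 to 1011 lower, lowest without number 2 (359 and 478 without number 3). Pathway genes went from 0 and 0 to 1 higher and 2 lower with the block, 1 higher with quantile normalization, 1 higher and 3 lower with short loci left out and TPM scaling, and 0 to 2 higher and 0 to 3 lower when a replicate number was left out. The cause was not tested.

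The Phc1 share in untreated samples was 84.4% under quantile normalization, against 83.9%. Leaving out a sample gave 83.7% to 84.1% in untreated and 81.5% to 85.3% in treated samples, and 69.1% to 72.2% and 68.6% to 71.0% for the Cbx7 share. Read numbers are not given with FPKM, so no limit set by depth was computed.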
